A study of Mus musculus with 36 samples.

Results

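The genes described here are Nrg1, Nrg2 and Nrg3, which encode neuregulin ligands, and Erbb4, which encodes a neuregulin receptor. They were taken by symbol, with the whole span that RefSeq gives them in the mouse build GRCm38, and are 4 of the 49943 genes that were placed on the autosomes and sex chromosomes. DNA lesions within these spans were mapped in 24 libraries of 6 tissues, 2 samples per tissue, for which the labels name 2 male C57BL/6J mice aged 24 months as the source. The tissues were bone marrow with the red cells lysed, whole brain, whole heart and whole liver ground to powder, peripheral blood mononuclear cells (PBMCs) from a density gradient, and motile sperm from the tail of the epididymis. Each tissue sample gave 1 library of single-strand breaks (SSBs, SSiNGLe assay) and 1 library of apurinic or apyrimidinic sites (AP sites, SSiNGLe-AP assay), and both record the single nucleotide and strand of a lesion. All groups thus share strain, sex and age and carry no allele or treatment. The organ powders hold many cell types, and since RNA was not used here the tissue labels were not checked against marker genes.

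Neuregulins are growth factors with an EGF-like domain. They bind ErbB4, and some of them also bind ErbB3. Both are receptor tyrosine kinases that pair with ErbB2 or with ErbB4 itself and signal through the PI3K-AKT and RAS-MAPK cascades. In the heart the axis drives trabeculation in the embryo and supports cardiomyocytes in the adult, and in the nervous system it acts on myelination and on inhibitory interneurons, where ErbB4 is the main receptor. An AP site is left where a base has been lost or cut out by a glycosylase, and an SSB is a gap in the sugar-phosphate backbone of a strand; both arise as steps of base excision repair and from spontaneous damage.

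Nrg1 lies at chr8:31807452-32891609, Nrg3 at chr14:38365102-39473235 and Erbb4 at chr1:68031884-69108576, and each of these 3 spans more than 1000 kb. Nrg2, at chr18:36014581-36197532, is shorter, with 183 kb. The annotation used here gives whole spans without exons, so exonic and intronic lesions were not separated.

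Other annotated genes lie on or across the same spans, and their lesions cannot be told apart from those of the host. Nrg1 overlaps 9 genes, among them the lncRNA Gm39155 with 191 of its SSBs and 367 of its AP sites, and the protein-coding Gm3985 at its upper edge. Nrg3 overlaps 6 genes, including its antisense-named lncRNA Nrg3os with 114 SSBs and 164 AP sites, and the protein-coding Gm31606 with 110 and 189. Nrg2 overlaps 3 genes, of which Psd2 is protein-coding, and Erbb4 overlaps 2, a pseudogene and the lncRNA Gm51744.

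RefSeq promoter windows of GRCm38.p6, which run from 250 bases before to 50 bases after a start, were matched for Nrg3 and Erbb4, both on the minus strand. Nrg1 and Nrg2 had no entry. The Nrg3 window (chr14:39473039-39473338) is GC-rich, with 74.3% G or C and 36 CG dinucleotides, and the Erbb4 window (chr1:69108010-69108309) has 55.3% and 17. Over all libraries the Nrg3 window held 3 SSBs and 1 AP site and the Erbb4 window 2 SSBs and 3 AP sites, and all 9 lay before the start that the table uses. That start lies inside the whole span of each gene, so the 5 Erbb4 lesions and the Nrg3 AP site are also counted within the gene, while the 3 Nrg3 SSBs lie beyond the end of its span and are not. The sequences are shown because they are the lesions found in these 2 windows. Each is read 5′ to 3′ on the strand that carries the lesion, with 10 bases on either side, and the capital marks the recorded nucleotide.
Nrg3 SSB, brain replicate 1, plus strand, 225 bases before the start: gcgtccggccGcaccgccgct
Nrg3 SSB, liver replicate 2, minus strand, 231 bases before the start: ggggacagcgGcggtgcggcc
Nrg3 SSB, sperm replicate 2, plus strand, 175 bases before the start: tccagcctcgCcggcatcctc
Nrg3 AP site, bone marrow replicate 1, minus strand, 10 bases before the start: gcagactcgcCccgccgctcc
Erbb4 SSB, heart replicate 2, minus strand, 65 bases before the start: ttattgttgaCcaaccagtga
Erbb4 SSB, liver replicate 1, plus strand, 135 bases before the start: ggcggggttcCggcctctccc
Erbb4 AP site, bone marrow replicate 2, minus strand, 7 bases before the start: cgagcgagcgGaggatcactc
Erbb4 AP site, PBMC replicate 1, plus strand, 117 bases before the start: agttgattgcAaagaggcggc
Erbb4 AP site, sperm replicate 2, minus strand, 83 bases before the start: tttattccctCtttcttttta

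All 5 of the SSBs shown fell on C or G, and the 4 AP sites on C, G and A. Over all promoter windows of the table, the recorded base of 67206 SSBs was C in 39.0%, G in 35.5%, T in 20.1% and A in 5.51%. Of 70094 AP sites, 38.5% were on A, 36.2% on G, 16% on C and 9.23% on T. With 9 lesions in all, the bases in these 2 promoters cannot be compared with that background.

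The lesion density is given as LPKM, the number of positions, each counted once, scaled to the length of the gene in kb and to all positions of the library. The SSB libraries held 225011 to 1041983 positions (median 410489) and the AP libraries 460719 to 963258 (median 739741). The shallowest SSB libraries were PBMC replicate 1 and bone marrow replicate 2, with 225011 and 236000. A long member therefore collected 67 to 491 SSBs and 121 to 442 AP sites per library, and Nrg2 collected 32 to 148 and 51 to 142, where counting alone gives an uncertainty near the square root of each number. Liver replicate 1 of the AP libraries stood apart for several members, as described below.

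Nrg2 was the densest member in both assays. Its LPKM-SSB ranged from 0.466 over a median of 0.835 to 1.07, with a mean of 0.836 ± 0.169 (SD, n = 12 libraries). Nrg1 followed with 0.400 ± 0.0552, between 0.297 and 0.467. Nrg3 had 0.293 ± 0.0337 and Erbb4 0.283 ± 0.0474, and their ranges (0.203 to 0.325 and 0.207 to 0.396) overlapped almost entirely. For AP sites the order was the same, with a mean LPKM-AP of 0.762 ± 0.109 for Nrg2, 0.417 ± 0.0340 for Nrg1, 0.310 ± 0.0259 for Nrg3 and 0.251 ± 0.0508 for Erbb4. The lowest Nrg1 library (0.370) and the highest Nrg3 library (0.365) nearly met in this assay.

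Set against other genes, the 3 long members were sparse in lesions and Nrg2 was not. The median of 21887 protein-coding genes was 0.616 for LPKM-SSB and 0.617 for LPKM-AP, whereas that of the 224 other protein-coding genes of at least 500 kb was 0.389 and 0.407. Nrg1 stood in the middle of these long genes, above 116 of the 224 for SSBs and 119 for AP sites. Nrg3 stood above 62 and 66 of them and Erbb4 above 57 and 46. Nrg2, which is shorter than this group, exceeded all 224 for SSBs and 219 for AP sites.

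Few nucleotides were hit more than once. Of the 2423 distinct Nrg1 nucleotides with an SSB, 11 recurred in a second library, and for AP sites 46 of 3935 did so. For Nrg3 these numbers were 6 of 1806 and 41 of 2981, and for Erbb4 5 of 1644 and 26 of 2309. Between 5 and 17 nucleotides per gene carried both an SSB and an AP site in some library. The densities thus rest on scattered single events and not on a few recurrent sites.

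**Figure D1:**
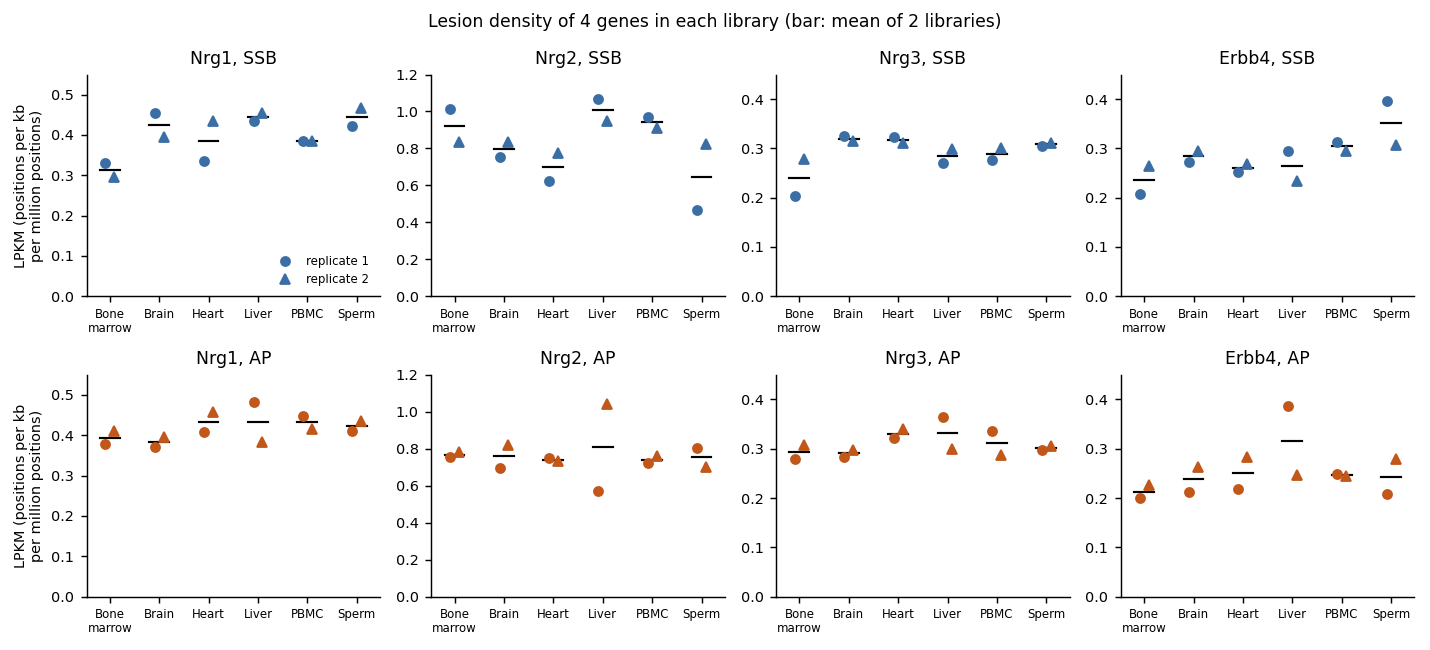
LPKM of each gene in each library (y axis, from 0; the scale differs between genes) by tissue, for SSBs in the upper row and AP sites in the lower row; circles are replicate 1, triangles replicate 2 and bars the mean of both. Bone marrow has the lowest mean for SSBs of Nrg1, Nrg3 and Erbb4, but its replicate 2 lies among other tissues for Nrg3 and Erbb4. Liver replicate 1 lies apart from liver replicate 2 for AP sites, with 0.387 against 0.246 in Erbb4.

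The tissue comparison asks whether the ligand and receptor genes of this axis carry lesions at a different density in the organs where it acts. For SSBs, bone marrow was the tissue that differed, and brain and heart were not set apart. Nrg1 had an LPKM-SSB of 0.330 and 0.297 in the bone marrow replicates. The other tissues read 0.454 and 0.396 in brain, 0.335 and 0.435 in heart, 0.434 and 0.454 in liver, 0.385 and 0.386 in PBMCs, and 0.423 and 0.467 in sperm. Both bone marrow values lay below all 10 others, and heart replicate 1 came nearest. Heart spread widely and overlapped each of the other tissues except bone marrow, while PBMCs lay below brain, liver and sperm, which overlapped each other.

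Nrg3 showed 0.203 and 0.279 in bone marrow. It had 0.325 and 0.315 in brain, 0.323 and 0.312 in heart, 0.271 and 0.299 in liver, 0.277 and 0.301 in PBMCs, and 0.306 and 0.311 in sperm. Bone marrow replicate 1 was the lowest of all libraries, while replicate 2 lay within the range of liver and PBMCs. Erbb4 had 0.207 and 0.264 in bone marrow, 0.272 and 0.295 in brain, 0.252 and 0.269 in heart, 0.296 and 0.234 in liver, 0.314 and 0.295 in PBMCs, and 0.396 and 0.307 in sperm. Ordered by their means, each tissue overlapped the next, and bone marrow and sperm, at the ends, did not overlap. Nrg2 had a different order, from 0.466 and 0.824 in sperm through 0.624 and 0.776 in heart, 0.756 and 0.837 in brain, 1.01 and 0.834 in bone marrow, and 0.972 and 0.912 in PBMCs to 1.07 and 0.948 in liver.

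In the test over all 6 tissues (edgeR quasi-likelihood F test, Benjamini-Hochberg over 38486 genes), Nrg1 (adjusted p = 0.0117) and Erbb4 (adjusted p = 0.0427) passed the threshold of 0.05, and Nrg3 (0.0545) and Nrg2 (0.727) did not. The background of this test was 48 genes, or 0.125%, and 34 of the 224 other long genes were among them. Both calls were lost with library totals alone in place of TMM scaling (adjusted p = 0.443 for Nrg1 and 0.232 for Erbb4). With 1 library left out at a time, both were lost in 8 of 12 cases, both stayed without brain replicate 1, PBMC replicate 1 or PBMC replicate 2, and Nrg1 alone stayed without heart replicate 2. DESeq2's likelihood ratio test called 4 genes in all and no member.

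Bone marrow was then compared with the mean of the other 5 tissues. Nrg1 was 1.44-fold lower (log2 difference -0.52 ± 0.11 SE, adjusted p = 0.00421), Nrg3 1.45-fold lower (-0.53 ± 0.12, adjusted p = 0.0161) and Erbb4 1.41-fold lower (-0.49 ± 0.12, adjusted p = 0.0382). Nrg2 did not differ beyond its error (0.11 ± 0.15, adjusted p = 0.964). Of all 38486 genes 73 were called (0.19%), with 64 lower (0.166%) and 9 higher (0.0234%). Of the 224 other long genes, 44 were called, all lower, and their median log2 difference was -0.35, the same direction as in the 3 long members. All 3 calls were lost without bone marrow replicate 1, brain replicate 2, liver replicate 1 or sperm replicate 1, while the differences stayed negative; without bone marrow replicate 1 those of Nrg3 and Erbb4 were -0.28 and -0.30.

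Long genes as a class were sparse in the bone marrow SSB libraries. Their pooled LPKM-SSB was 0.332 and 0.347 there and 0.375 to 0.420 in the other 10 libraries. Divided by that value of the same library, Nrg1 had a ratio of 0.925 ± 0.0981 (n = 2) in bone marrow and 1.05 ± 0.115 over all 12 libraries, Nrg3 0.708 ± 0.137 and 0.773 ± 0.0710, and Erbb4 0.691 ± 0.0968 and 0.744 ± 0.0898. Beside other long genes, the members' deficit in bone marrow was therefore smaller than the fitted differences. LPKM gives a gene's share of the lesions of a library and not its lesions per cell. In bulk tissue, a change in the mix of cells, in the lesions of these genes or in lesions elsewhere cannot be told apart. With library totals alone the median of all genes moved from 0.035 to 0.16, the members read -0.39, -0.41 and -0.37 with no call, and the split of all calls turned from 9 higher and 64 lower to 21 higher and 8 lower (17 and 45 under relative log expression scaling, where Erbb4 was not called, adjusted p = 0.0646).

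In brain and heart, the organs where the pathway is best known, no member was called for SSBs, and the background was 0 and 3 genes (0.0078%) at 1885 and 2275 genes with an unadjusted p under 0.05. The brain difference was 0.12 ± 0.090 for Nrg1, 0.21 ± 0.099 for Nrg3, 0.089 ± 0.10 for Erbb4 and 0.0037 ± 0.14 for Nrg2. In heart, Nrg3 had 0.24 ± 0.090, Nrg1 0.096 ± 0.082, Erbb4 -0.013 ± 0.095 and Nrg2 -0.13 ± 0.13. The 95% intervals of these 8 differences lay between -0.38 and 0.42 on the log2 scale.

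Liver, PBMCs and sperm gave no call among the members either. Erbb4 was higher in sperm by a log2 difference of 0.45 ± 0.11 with an adjusted p of 0.131, while 8 genes (0.0208%), all of them long genes, passed there. That value was 0.24 without sperm replicate 1, whose 0.396 was the highest of the 12, and it passed under relative log expression scaling (0.50, adjusted p = 0.0133) and among genes with a position in at least 80% of libraries (0.49, adjusted p = 0.0168). Nrg2 in sperm read -0.47 ± 0.18 (adjusted p = 0.713) and -0.052 without the same library. Nrg2 in liver read 0.36 ± 0.13 and Nrg1 in liver 0.24 ± 0.087, both with an adjusted p of 0.974.

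**Figure D2:**
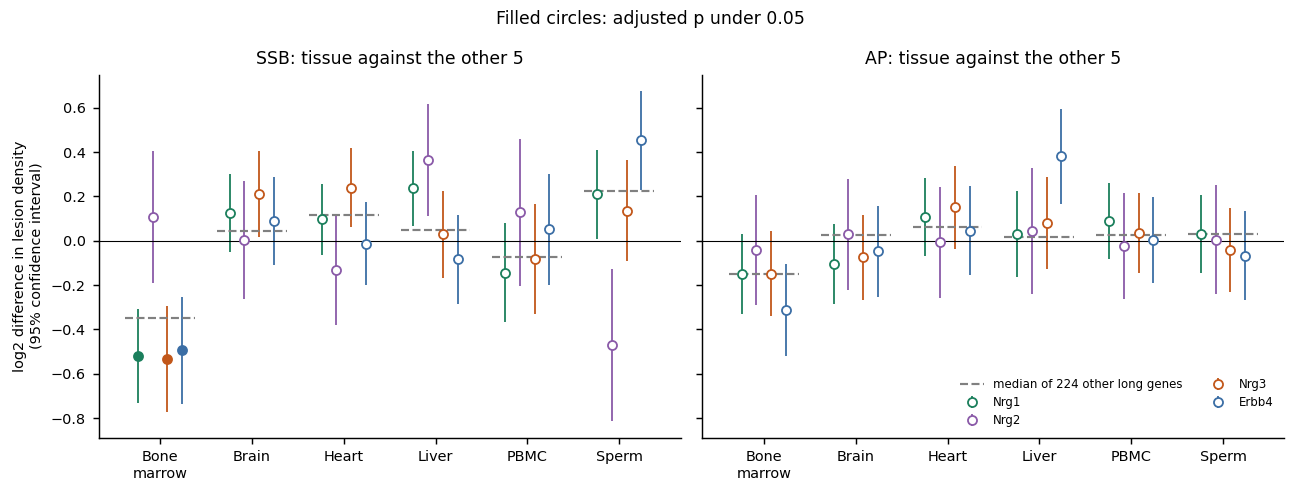
Log2 difference of each tissue from the mean of the other 5 (y axis) with its 95% confidence interval, for SSBs (left) and AP sites (right); colours are genes, filled circles have an adjusted p under 0.05, and grey dashes mark the median of 224 other long genes. The 3 filled circles are Nrg1, Nrg3 and Erbb4 in bone marrow SSBs, where the long-gene median is -0.35.

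For AP sites the tissues were not told apart. No gene of 41374 passed the test over 6 tissues (edgeR, 0%, with 1219 at an unadjusted p under 0.05; DESeq2 0, with 18), and no member was called in any tissue contrast (0% in each, with 1555 to 1819 genes at an unadjusted p under 0.05). Nrg1 had 0.378 and 0.410 in bone marrow, 0.370 and 0.396 in brain, 0.409 and 0.458 in heart, 0.483 and 0.384 in liver, 0.448 and 0.417 in PBMCs and 0.412 and 0.435 in sperm. The tissue means of Nrg1 spanned a factor of 1.13, those of Nrg3 1.14 and those of Nrg2 1.09. Those of Nrg3 ran from 0.291 ± 0.0100 (SD, n = 2) in brain to 0.332 ± 0.0464 in liver.

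Erbb4 varied more among the AP libraries, with bone marrow at 0.199 and 0.227, brain at 0.213 and 0.262, heart at 0.218 and 0.284, PBMCs at 0.248 and 0.244, and sperm at 0.207 and 0.280. Liver had 0.387 and 0.246. Replicate 1 of liver was the highest AP library for Nrg1 (0.483), Nrg3 (0.365) and Erbb4 and the lowest for Nrg2 (0.573, against 1.04 in replicate 2), and it also had the highest pooled value of the long genes, 0.423. The difference of Erbb4 in liver was 0.38 ± 0.11 (unadjusted p = 5.0e-04, adjusted p = 1.0). It was 0.71 with an adjusted p of 0.00429 when replicate 2 was left out and -0.020 when replicate 1 was left out, so it rested on that library.

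The AP densities of the 3 long members were correlated over the 12 libraries. Pearson's r is given as a description, since the libraries differ in depth and tissue. It was 0.899 for Nrg1 with Nrg3, 0.801 for Nrg1 with Erbb4 and 0.779 for Nrg3 with Erbb4. Nrg2 ran the other way, with r from -0.463 to -0.575. Without liver replicate 1, a choice made after seeing the values, the 3 positive values were 0.831, 0.664 and 0.535, and those of Nrg2 lay between -0.0044 and -0.361. For SSBs the corresponding values were 0.453, 0.335 and 0.386. Each of the long members correlated with the pooled value of the other long genes. For SSBs that r was 0.671 for Nrg1, 0.662 for Nrg3 and 0.787 for Erbb4, whereas Nrg2 had -0.524. For AP sites, with liver replicate 1 included, it was 0.778, 0.687 and 0.843, whereas Nrg2 had -0.497. A correlation among the long members was thus shared with other long genes.

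The genes whose pattern over 12 libraries was most like that of each member were mostly long genes for the long members and shorter ones for Nrg2. For SSBs, among 943 genes with a mean of at least 50 positions, Nrg1 was closest to Adamtsl1 (r = 0.898), Agbl4 (0.889) and B3galt1 (0.862), Nrg3 to Kcnb2 (0.853), Robo1 (0.842) and Fam155a (0.825), and Erbb4 to Anks1b (0.867), Csmd1 (0.837) and Slc25a21 (0.816). Nrg2 was closest to Rxra (0.813), Ranbp17 (0.761) and Zfp618 (0.736). For AP sites, among 1904 genes, Nrg1 was closest to Nrg3 (0.899), Tafa2 (0.868) and Dpp10 (0.859), Nrg3 to Tafa2 (0.918), Nrg1 and Rims2 (0.878), Erbb4 to Kcnq5 (0.940), Galntl6 (0.938) and Dpyd (0.935), and Nrg2 to Mcf2l (0.879), Gramd4 (0.866) and Rps6ka2 (0.842). These are the highest values of a search and carry no test. A minimum number of positions itself favours long genes, and their share among the genes searched was not computed. The AP values include liver replicate 1.

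The 2 assays were compared in the same tissue samples, with SSB and AP libraries paired by sample. The log2 difference of SSBs over AP sites was -0.054 ± 0.050 for Nrg1, 0.10 ± 0.075 for Nrg2, -0.073 ± 0.055 for Nrg3 and 0.17 ± 0.058 for Erbb4. No member passed (adjusted p = 0.841, 0.744, 0.768 and 0.176), while 246 of 41210 genes did (0.597%), with 161 higher for SSBs (0.391%) and 85 lower (0.206%). TMM scaling turned that split to 95 higher and 280 lower and brought Erbb4 to 0.082. Leaving out both libraries of liver replicate 1 brought Erbb4 to 0.23 with an adjusted p of 0.0397, and leaving out sperm replicate 1 brought it to 0.087. The test of whether the assay difference itself varied by tissue called 1 gene (0.00243%, with 1453 at an unadjusted p under 0.05) and no member, with Erbb4 at an unadjusted p of 3.9e-04 and an adjusted p of 0.926.

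Relative to its surrounding DNA, Erbb4 differed in direction from Nrg1, Nrg2 and Nrg3. Each gene was compared with its own flanks, which together had the same length, one on each side. Nrg3 was the clearest case. Its flanks had a median LPKM-SSB of 0.179 over the 12 libraries (0.151 to 0.216), against 0.303 within the gene (0.203 to 0.325). For AP sites the flanks had 0.162 (0.129 to 0.219) and the gene 0.303 (0.278 to 0.365), with no overlap between the ranges. The gene was 1.63-fold denser in SSBs (log2 0.70 ± 0.058, adjusted p = 9.2e-32) and 1.90-fold denser in AP sites (0.92 ± 0.046, adjusted p = 2.9e-87), in 12 of 12 libraries each.

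Nrg2 was 1.62-fold denser than its flanks for SSBs (0.70 ± 0.081, adjusted p = 1.1e-15) and 1.69-fold for AP sites (0.75 ± 0.068, adjusted p = 2.1e-26), in 12 of 12 libraries. Its flanks were unequal. The lower-coordinate flank, where Psd2 lies, had 0.705 ± 0.128 for SSBs and 0.633 ± 0.0473 for AP sites, and the upper flank 0.320 ± 0.117 and 0.271 ± 0.0518. Nrg1 was 1.23-fold denser than its flanks for SSBs (0.30 ± 0.048, adjusted p = 2.1e-08, 10 of 12 libraries) and 1.24-fold for AP sites (0.31 ± 0.037, adjusted p = 2.8e-15, 12 of 12 libraries).

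Erbb4 went the other way. Its LPKM-AP had a median of 0.245 within the gene (0.199 to 0.387) and 0.302 in the flanks (0.263 to 0.378), and the gene was lower in 11 of 12 libraries, all but 1. The log2 difference was -0.32 ± 0.042 (1.24-fold lower, adjusted p = 3.1e-12). For SSBs it was lower in 9 of 12 libraries with -0.13 ± 0.053 (adjusted p = 0.0701), and it passed under TMM scaling (-0.24, adjusted p = 8.3e-05) and without PBMC replicate 2 or sperm replicate 1. The low value came from the side beyond the start of the gene: the upper flank had 0.395 ± 0.0653 for SSBs and 0.395 ± 0.0375 for AP sites, and the lower flank 0.222 ± 0.0406 and 0.221 ± 0.0283. The gene itself, with means of 0.283 ± 0.0474 and 0.251 ± 0.0508, was not lower than that lower flank.

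Differences between a gene and its flanks were common in this table, and the members' calls are read against that. Of 40949 genes 18% were called for SSBs, and of 43081 genes 28.5% for AP sites, mostly as denser genes (12.1% and 20.6%), with 5.86% and 7.87% sparser. The median of all genes was 0.23 and 0.30 on the log2 scale, and Nrg1, with 0.30 and 0.31, lay near it. Of the 223 other long genes tested 161 (72.2%) and 181 (81.2%) were called, with medians of 0.16 and 0.20, so a call was usual for a long gene. Among these long-gene calls 116 and 136 were denser than their flanks. In each assay 45 were sparser, the direction of Erbb4. TMM scaling lowered the medians of all genes to 0.12 and 0.18 and left the sign of each member as it was. The split of calls went from 4952 denser and 2401 sparser to 3617 and 3289 for SSBs, and from 8894 and 3389 to 6609 and 4600 for AP sites. Differences in base composition or in how well reads map to these regions were not tested, since no genome sequence was used.

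**Figure D3:**
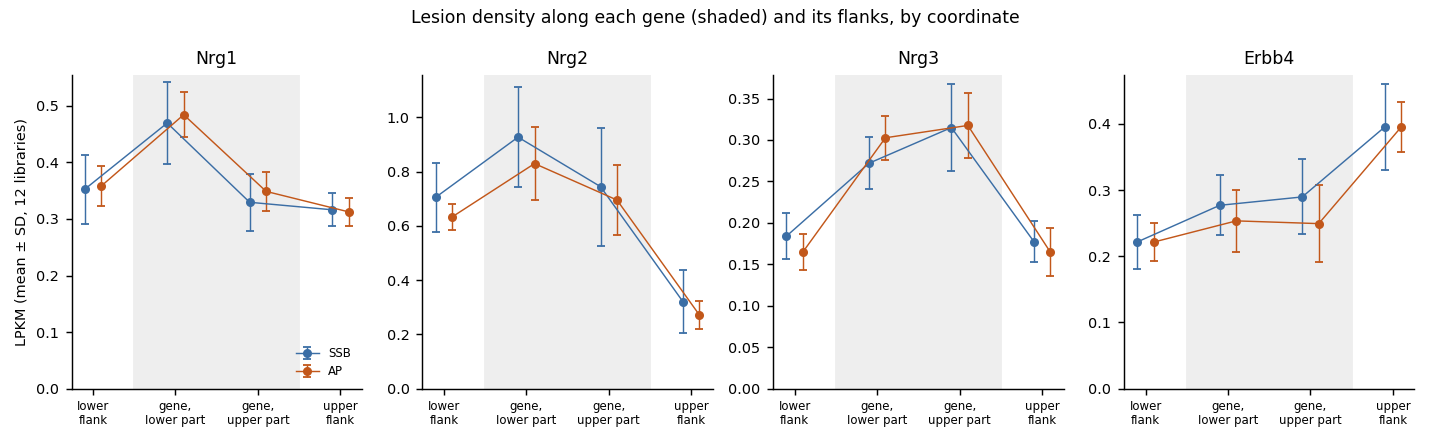
Mean LPKM ± SD over 12 libraries (y axis, from 0; the scale differs between genes) in the lower-coordinate flank, the lower and upper parts of the gene (shaded) and the upper flank, for SSBs (blue) and AP sites (orange). Nrg3 stands above both flanks, Nrg1 and Nrg2 are densest in their lower part, and Erbb4 lies below its upper flank of 0.395.

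Within the gene, lesions were unevenly spread in Nrg1. When each span was split at its midpoint, the lower-coordinate part of Nrg1 had a mean LPKM-SSB of 0.470 ± 0.0727 and the upper part 0.330 ± 0.050, and for AP sites 0.484 ± 0.0399 and 0.349 ± 0.0338. The lower part was denser in all 12 SSB libraries (log2 difference 0.49 ± 0.063, adjusted p = 4.1e-12) and in all 12 AP libraries (0.47 ± 0.049, adjusted p = 1.4e-19). Nrg2 leaned the same way, with 0.34 ± 0.10 for SSBs (adjusted p = 0.0159, 9 of 12 libraries) and 0.29 ± 0.083 for AP sites (adjusted p = 0.00489, 10 of 12). The SSB call of Nrg2 was lost without heart replicate 1 (0.27, adjusted p = 0.103) or brain replicate 2 (0.32, adjusted p = 0.0524).

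Nrg3 and Erbb4, both on the minus strand so that lower coordinates are nearer the 3′ end, were more even. Nrg3 had -0.21 ± 0.071 for SSBs (adjusted p = 0.0516), which lay at the threshold and passed under 7 of 15 alternatives, and -0.067 ± 0.055 for AP sites. Erbb4 had -0.048 ± 0.074 and 0.028 ± 0.062. The background for this split was 6.7% of 38484 genes for SSBs (3.28% denser in the lower part, 3.42% in the upper) and 14.9% of 41371 for AP sites (7.37% and 7.56%), and 106 and 138 of the 224 other long genes were called, so that an uneven spread along a long gene was common.

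In windows of 100 kb, Nrg1 had its peak near the lower edge of the gene, at chr8:31849530-31949529, with 0.559 ± 0.100 for SSBs and 0.613 ± 0.0952 for AP sites. That was 2.10 and 2.12 times its sparsest window. In Erbb4 the sparsest window, chr1:68470230-68570229, was the same in both assays, with 0.196 ± 0.0780 and 0.186 ± 0.0742. Nrg3 was the flattest, with a ratio of 1.43 for SSBs and 1.47 for AP sites between its densest window, chr14:38619168-38719167 in both assays, and its sparsest. All 12 windows wholly outside Nrg3 lay below the lowest of the 10 wholly inside it, in both assays (at most 0.225 against at least 0.232 for SSBs, and 0.197 against 0.245 for AP sites). The 2 windows that straddle its edges belong to neither set and had 0.280 and 0.331 for SSBs and 0.313 and 0.354 for AP sites. The profiles of the 2 assays resembled each other over the 10 windows of a gene, with r = 0.943 for Nrg1, 0.817 for Erbb4 and 0.610 for Nrg3, given as a description since both share base composition and mapping.

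**Figure D4:**
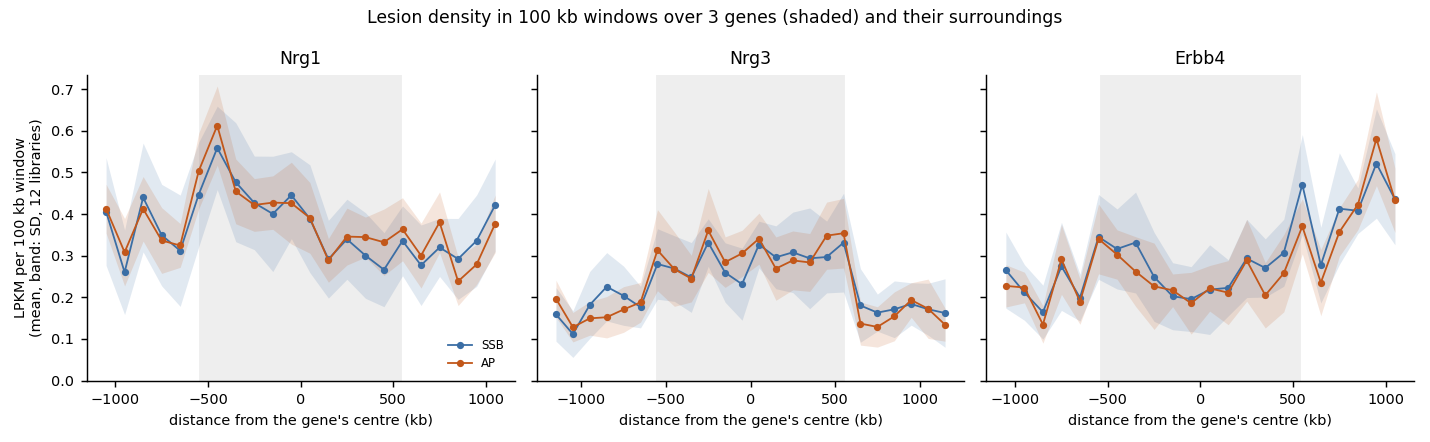
Mean LPKM in 100 kb windows (y axis, from 0; bands show SD over 12 libraries) against the distance from the gene's centre in kb along increasing coordinates, for SSBs (blue) and AP sites (orange); grey marks the gene. Nrg1 peaks at its lower edge (0.559 and 0.613), Nrg3 stands above its surroundings as a plateau, and Erbb4 dips in its centre.

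The strand of the lesions was compared within each gene. For SSBs the minus strand held 53.8% of the Nrg3 positions (974 of 1812 over all libraries) and 53.7% of the Erbb4 positions (886 of 1649). The share was over 50% in 10 and 9 of 12 libraries, with a range of 45.9% to 62.7% for Nrg3 and 44.3% to 63.8% for Erbb4. The minus strand is the strand of both genes, so this was an excess on the gene's own, non-template strand. The minus strand held 52.7% of the Nrg1 positions and 55.1% of the Nrg2 positions, and their orientation was not given in the tables used.

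None of these shares passed the test of plus against minus strand. The log2 difference was -0.22 ± 0.071 for Nrg3 (adjusted p = 0.0723), -0.21 ± 0.074 for Erbb4 (0.0986), -0.29 ± 0.10 for Nrg2 (0.0944) and -0.16 ± 0.063 for Nrg1 (0.203). Of all 38486 genes 975 (2.53%) passed, 1.44% denser on the plus and 1.09% on the minus strand. Among the 224 other long genes 67 (29.9%) passed. Nrg3 passed under TMM scaling (-0.24, adjusted p = 0.0389), and 1 member passed when brain replicate 2, either heart replicate, liver replicate 1 or PBMC replicate 2 was left out. Of the 762 called genes whose orientation was given, 739 (97.0%) were denser on their own strand, as were 153 of 177 other long genes regardless of the test. Nrg3 and Erbb4 had the same direction.

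For AP sites the shares were nearer to equal. Whole libraries were not exactly even: 50.8% to 51.1% of all AP positions and 50.2% to 50.6% of all SSB positions lay on the plus strand. The main strand test was not adjusted for this offset. The minus strand held 50.7% in Nrg1, 49.0% in Nrg2 and 49.3% in Erbb4, with 6 of 12 libraries above 50% in each. Nrg3 had 52.7%, in 11 of 12 libraries, with a log2 difference of -0.16 ± 0.056 (unadjusted p = 0.00517, adjusted p = 0.438). No member and 16 of 41374 genes (0.0387%, with 2587 at an unadjusted p under 0.05) were called, 15 of them denser on the plus strand (0.0363%) and 1 on the minus strand (0.00242%), or 5 and 1 under TMM scaling. The strand difference was not tested between the assays.

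**Figure D5:**
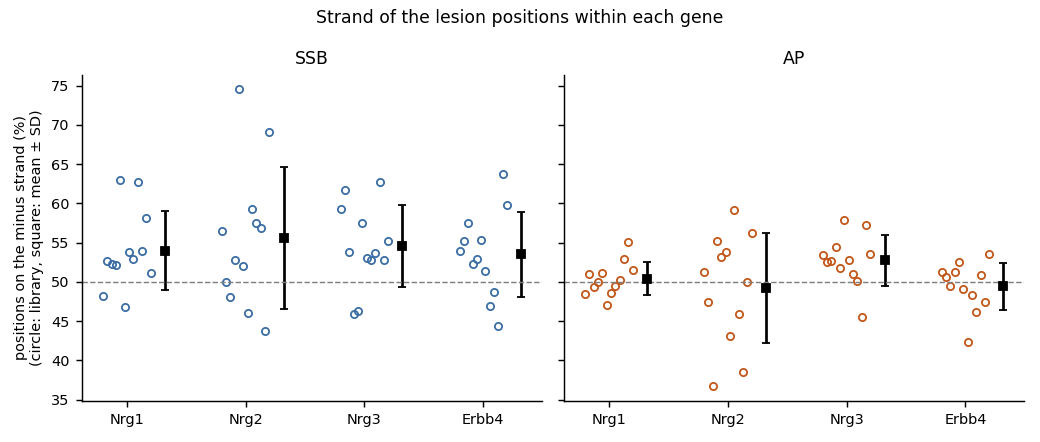
Percent of positions on the minus strand (y axis; it does not start at 0) within each gene, for SSBs (left) and AP sites (right); circles are libraries, squares with bars the mean ± SD of 12 libraries, and the dashed line marks equal strands. For SSBs 8 to 10 of 12 libraries lie above the line for each gene, and the spread is widest in Nrg2, which has the fewest positions.

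The rest of the pathway was taken as a list of 43 genes, made up of 3 other receptors, 8 other EGF-family ligands, 4 shedding proteases, 7 inhibitors or turnover factors and 21 adaptors and effectors. None of the 43 passed the test over 6 tissues for either assay or any tissue contrast, bone marrow included, where their median log2 difference for SSBs was 0.088 beside the -0.35 of the long genes. Most of these genes are shorter than the members and hold fewer lesions. Relative to library totals, SSBs were denser than AP sites in Shc1, an adaptor of the receptors (1.09 ± 0.23, adjusted p = 0.00266), and in Dlg4, a postsynaptic scaffold that binds ErbB4 (0.76 ± 0.17, adjusted p = 0.00525). These 2 are 4.65% of the list, beside 0.597% of all genes, and no gene of the list was called as lower. The genes of the list were read in the main setting only, so whether their calls hold under other scaling was not tested.

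Against their flanks, 21 of the 43 were called for SSBs (16 denser, 5 sparser) and 26 for AP sites (18 denser, 8 sparser). That is 48.8% and 60.5% of the list, beside 18% and 28.5% of all genes. Egfr, the founding receptor of the family, was denser than its flanks in SSBs (0.97 ± 0.10) and in AP sites (1.05 ± 0.077), unlike Erbb4. Gab1, an adaptor (0.85 and 1.06), and Lrig1, which restrains ErbB receptors (0.79 and 0.89), were also denser. Cbl, a ubiquitin ligase that turns receptors over (-1.18 and -1.24), was sparser in both. By strand, 3 genes were called for SSBs, among them Lrig1 (-0.57) and the protease Adam10 (0.75), and none for AP sites (6.98% and 0% of the list, beside 2.53% and 0.0387% of all genes). By position, 5 genes were called for SSBs, including the ligand gene Nrg4 (0.67), and 10 for AP sites, including Nrg4 (0.85), which is 11.6% and 23.3% of the list beside 6.7% and 14.9% of all genes. How far gene length and depth enter these shares was not tested.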

How the data were processed

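The authors deposited, for each of the 24 libraries, the position, strand and raw count of every lesion, without normalization and without pooling of replicates. An aligner and filters for these lists are not given in the sources used here, and the submitters' processing notes name mm10 and GRCm38. Each position was counted once, whatever its count, over the span of each RefSeq gene of GRCm38.p6 on either strand. For LPKM, the number of positions was scaled to kb of gene and to the library total (factor 1e+09 for length in bases).

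Groups came from the labels of each sample. The labels name 2 mice as the source of all tissues, so samples of different tissues can share an animal. The p-values apply to these samples and do not measure a spread between animals. In the tissue tests the spread was estimated from all genes together (infinite prior degrees of freedom), not from each gene's own 2 samples per tissue. The tests of strand, parts of a gene and flanks compare positions within the same library, so their small p-values do not measure reproducibility between animals. Both assays used the same tissue samples. Genes with a position in at least 20% of the libraries were tested with edgeR 4.0.16 in R 4.3.3 (quasi-likelihood, Benjamini-Hochberg over all genes tested, threshold 0.05, two-sided). The tissue tests used TMM scaling. The comparisons of assays, strands, parts of a gene and flanks used library totals alone with sample or library as a block, and edgeR's newer dispersion route for run time. Strand was tested as plus against minus and position as lower against upper coordinates, since the tables used give the orientation of Nrg3 and Erbb4 but not of Nrg1 and Nrg2; this differs from the plan, which had the gene's own strand and its 5′ and 3′ parts. The statistics were tested on simulated counts drawn independently for each library, so the sharing of animals between tissues was not covered.

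The genes named are the 4 members, the pathway genes called in a test (at most 6 per test by smallest p), the 3 genes with the most similar LPKM per member and assay, and genes that overlap a member. The members and lists were chosen with earlier results of these data known. Alternatives covered scaling, filters (20% against 80% of libraries, or any position), summed counts, thinning to the shallowest library (225011 and 460719 positions), DESeq2 1.42.0, tissues and libraries left out, and a replicate block; the block was not used for the main tests because the labels do not say that a number marks the same animal across tissues. Counting error only is covered by the depth figures. The 12 RNA profiles are not analysed here. Some pathway genes that the rule names are not reported here.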

Additional observations from a re-analysis of the deposited data

How the results depend on the processing

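The tissue results for SSBs were the ones that depended on the processing. The number of members called over 6 tissues was 2. It was 0 with library totals alone, summed counts, libraries thinned to equal depth, bone marrow left out, sperm left out or DESeq2, and 1 with all genes that had a position. Leaving out 1 library at a time gave 0 to 3, with 2 or more only without brain replicate 1, PBMC replicate 1 or PBMC replicate 2. The 3 member calls among the tissue contrasts, all in bone marrow, fell to 0 under library totals alone, summed counts, thinning, and without sperm, and cannot be made without bone marrow (0). With single libraries left out they ranged from 0 to 3, and were 0 without bone marrow replicate 1, brain replicate 2, liver replicate 1 or sperm replicate 1. The 80% filter gave 4, with Erbb4 in sperm added, and relative log expression scaling gave 3, with Erbb4 in sperm in place of Erbb4 in bone marrow. The direction stayed negative for Nrg1, Nrg3 and Erbb4 in each of these settings that kept bone marrow. The cause was not tested, except that thinning and leaving out libraries leave fewer positions to test.

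For AP sites, 0 members were called over tissues and contrasts, with a range of 0 to 1 when single libraries were left out, the 1 being Erbb4 without liver replicate 2. For the assay comparison the range was 0 to 1 (Erbb4 without liver replicate 1). For strands of SSBs, TMM scaling gave 1 and single libraries left out 0 to 1. For the split at the midpoint for SSBs, the 2 calls ranged from 1 to 3, and they were 1 without heart replicate 1. The calls against flanks, and those of the AP strand and midpoint tests, stayed within 1.5 times.

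Over all genes, the 48 calls over tissues for SSBs became 15 with library totals, 16 with summed counts, 8 when thinned, 3 without bone marrow, 7 without sperm and 4 with DESeq2. The 73 of bone marrow became 29, 14 and 6 under the first 3 of these and 6 without sperm. The 8 of sperm became 27 under relative log expression scaling and with the 80% filter, and 3 with summed counts or without bone marrow. The 246 of the assay comparison became 375 under TMM (95 higher and 280 lower, against 161 and 85) and 39 with DESeq2, which gave an adjusted p for 2860 genes only, and the 16 of the AP strand test became 6 under TMM. With single libraries left out, the 48 ranged from 4 (without bone marrow replicate 1) to 65, and the 73 from 0 (without bone marrow replicate 1) to 96, with 14 to 16 without brain replicate 2, heart replicate 1, liver replicate 1 or sperm replicate 1, and 21 and 39 without bone marrow replicate 2 and heart replicate 2. The 8 of sperm ranged from 0 (without sperm replicate 1) to 10, the 3 of heart from 0 to 2, the 246 from 127 (without heart replicate 2) to 272, and the 16 from 7 (without either PBMC library) to 22.

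With the replicate block, 2 members were called over tissues and 3 among contrasts for SSBs, and 0 and 0 for AP sites, so the block changed no call. The assay comparison without pairing by sample (no replicate block) gave 0. The deviations of same-numbered libraries correlated between tissues from -0.033 to 0.024 for SSBs and from -0.189 to 0.131 for AP sites over 15 pairs of tissues, so the numbers were not taken to pair them. Depth limits Nrg2 most, with as few as 32 SSBs in a library.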
